A study of Homo sapiens with 9 samples.

Results

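The 3 RNA-seq libraries of K-562 cells treated with an ETR, a fusion protein for epigenetic silencing, and a gRNA shortened to 16 nt were compared with the 3 libraries of mock-treated cells. These 6 libraries were taken from a series of 9 by the group named in the sample titles. The other 3 libraries came from cells given the same ETR with a full-length gRNA. They are used here for the shared estimate of spread, and their own values are given beside some results. All 9 libraries came from K-562 cells whose genotype is given as B2M tdTomato, so the mock cells carry it too. K-562 is a suspension line from a chronic myeloid leukaemia with erythroid and megakaryocytic features, and tdTomato is a red fluorescent protein. The tripartite ETR, built on dCas9, was nucleofected as mRNA together with a gRNA against the B2M promoter. The sources used here do not give the content of the mock treatment, the time from delivery to lysis, any sorting or cloning of the cells, or how many B2M copies carry tdTomato. The mock libraries carry the name UT, which these sources do not spell out. If mock cells were not nucleofected, delivery and ETR cannot be told apart. Whether replicates are separate cultures is not given either, and p-values then reflect no more than library spread, which may be technical.

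B2M encodes beta-2-microglobulin, the light chain that the heavy chains of MHC class I molecules need to fold and to reach the cell surface. An ETR joins repressor domains to a protein that binds a chosen DNA site, usually in a promoter. In published designs these domains come from the KRAB zinc finger protein ZNF10 and from the DNA methyltransferase DNMT3A and its cofactor DNMT3L, and leave repressive histone marks and CpG methylation. dCas9 finds its site by base pairing of the gRNA spacer with DNA next to an NGG motif. In nuclease-active Cas9, spacers cut short at the 5′ end still allow binding while cleavage is lost, which is how one protein can be used to cut at one site and to repress at another.

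The upstream part of the B2M promoter is shown because the ETR was directed at this promoter. It covers chr15:44711267-44711486 of GRCh38.p14 (RefSeq), on the plus strand, and ends 1 base before the first base of B2M in the deposited annotation. CpG dinucleotides are in capitals.
B2M promoter: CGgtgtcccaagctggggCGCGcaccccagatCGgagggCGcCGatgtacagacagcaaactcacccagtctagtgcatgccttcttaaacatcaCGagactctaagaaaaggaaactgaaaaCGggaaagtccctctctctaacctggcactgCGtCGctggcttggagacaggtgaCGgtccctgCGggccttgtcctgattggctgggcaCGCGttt

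These 220 bases hold 14 CpGs, the dinucleotides that DNMT3A methylates. The 300-base promoter window of the reference, which runs past the start, holds 22, and 62.4% of the 27305 promoters in that table hold fewer, their median being 14. Among motifs of class I promoters, the interferon response motif, GAAA and again GAAA after any 2 bases, occurs 1 time on the strand shown, as do the CCAAT-box core ATTGG and TGACG, the core of cAMP-response-like elements. On either strand these letters occur in 2.63%, 30.7% and 18.8% of all promoter windows of the same length. Neither strand holds TATAAG, which is in 3.67% of them. NGG, the motif that Cas9 needs beside its target, occurs 20 times on the strand shown and 16 times on the other. Which of these sites the gRNA used is not given in the sources used here.

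B2M RNA was far lower in every 16-nt library than in any mock library. B2M was also the only one of the 15213 tested genes that passed the test, while 13 genes passed without a filter on low counts. Mock libraries 1 to 3 held 147, 135 and 135 CPM of B2M (read counts scaled to TMM library sizes). The 16-nt libraries held 19, 22.3 and 16.4 CPM. The lowest mock library thus stood well above the highest 16-nt library, and replicate 2 kept the most B2M of the 3. Set against the mock mean, B2M stood at 13.7%, 16.0% and 11.8%. Set against the mock library of the same number, it stood at 12.9%, 16.6% and 12.1%, close to the values against the mean.

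In the edgeR fit the log2 fold change was -2.85 (SE 0.11, adjusted p = 1.08e-09), a 7.21-fold fall with a 95% CI of 6.13 to 8.48. This leaves 13.9% of the mock level (95% CI 11.8 to 16.3). With the replicate number as a block the fold change was -2.86 (SE 0.10, 95% CI -3.06 to -2.65, edgeR adjusted p = 4.86e-10). With the block and these 6 libraries alone it was again -2.86 (SE 0.11, edgeR adjusted p = 2.16e-18). By exact permutation of the libraries, two-sided, the difference in log2 CPM was -2.86 with p = 0.10, the smallest that 3 against 3 libraries allow. In RNA of whole cultures, fewer cells with B2M and less B2M RNA per cell cannot be told apart.

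Scaled also by exon length, B2M went from 19.5 ± 0.996 to 2.69 ± 0.415 CPM per kb (SD, n = 3 each). On that scale it moved from rank 2303 of the 15213 tested genes, with 84.9% of them below it, to rank 8613, with 43.4% below it. On this scale B2M with the 16-nt gRNA thus ranked near the middle of the tested genes. With 462, 714 and 423 counts in the 16-nt libraries it was not near the floor of detection. The scale divides by the exon length in the deposited annotation, 7141 bases for B2M. The RNA made may differ from that length, and a shorter RNA would stand higher, so these levels and ranks are uncertain. With the full-length gRNA B2M stood at 1.36 ± 0.137 CPM per kb (SD, n = 3) and rank 10292.

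The full-length libraries held 10.8, 9.21 and 9.09 CPM of B2M, below all 3 of the 16-nt libraries. Between the gRNAs B2M was 1.98-fold higher with the 16-nt gRNA (95% CI 1.67 to 2.35, log2 fold change 0.99, SE 0.12, edgeR adjusted p = 0.00580). With the block it was 0.99 as well (SE 0.10, edgeR adjusted p = 0.00239). B2M was the only gene called between the gRNAs, or 0.00657% of 15213 in either fit.

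**Figure D1:**
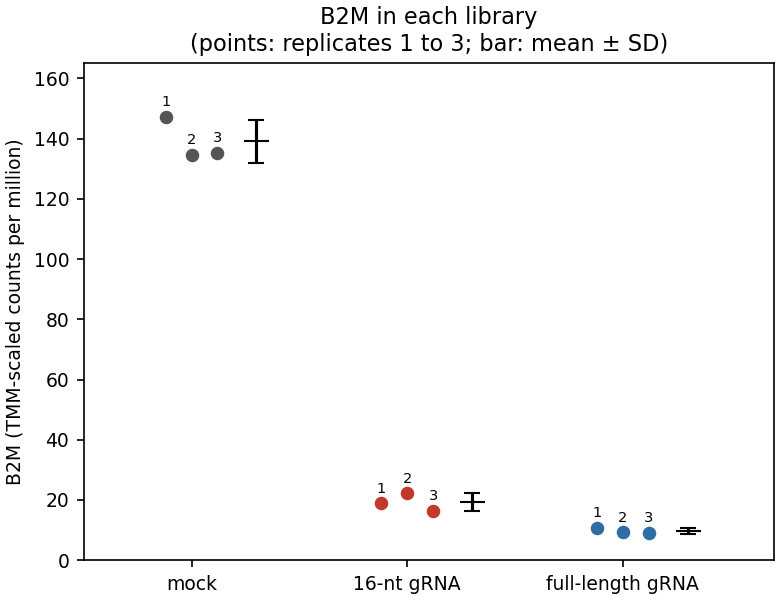
B2M level in each library (points: replicates 1 to 3, y axis: CPM from 0) with the mean and SD of each group (n = 3). Mock libraries lie between 135 and 147 CPM, 16-nt libraries between 16.4 and 22.3, and full-length libraries between 9.09 and 10.8.

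The libraries gave 25377704 to 30730369 counts with the 16-nt gRNA and 25436995 to 33260228 in mock. Of the K-562 markers, 15 of 15 exceeded 1 CPM, summing to 2313 to 2959 CPM in mock and 2429 to 2821 with the 16-nt gRNA. The labels call the cells lymphoblasts, but 6 of 8 lymphocyte markers were under 1 CPM, with MS4A1 at 0 in all 6 libraries (sums 6.72 to 7.75 and 6.98 to 8.51). Of the rest, 0 of 6 monocyte and granulocyte markers, 1 of 7 fibroblast and endothelial markers and 5 of 6 epithelial markers exceeded 1 CPM. Their sums were 0.240 to 0.438, 2.60 to 3.76 and 428 to 547 CPM in mock, against 0.562 to 1.07, 2.94 to 4.07 and 442 to 551 CPM. The 16-nt replicate 3 library stood apart on the first principal component of all 9 libraries (33.1% of variance), at 26.9 against -19.1 to 6.84 in the other 5 used here. The full-length replicate 3 library lay beside it at 30.7. Without both, B2M stood at -2.75 against mock.

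Apart from B2M, no tested gene passed in the fit with a filter on low counts. edgeR called 1 of 15213 genes, or 0.00657%, with 0 higher and 1 lower, and the same number with the block. The next lowest adjusted p was 0.978 without the block and 0.320 with it. Before adjustment, 377 genes had an edgeR p under 0.05, or 2.48%, of which 220 (1.45%) were higher and 157 (1.03%) lower. The block raised this to 921 genes, or 6.05%, with 581 higher and 340 lower, and these held 375 of the 377. Evenly spread p-values would put a share of 0.05 of the genes there, more than without the block and less than with it. The cause of the low share without the block was not tested. DESeq2, which tested 33525 genes, also called 1 (0.00298%), with 308 at an unadjusted p under 0.05.

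How narrow the interval around a fold change was depended on the level of the gene. These intervals are per gene and not adjusted for the number of genes tested. They do not give the size of change that would be called. SLC16A3, 1.46-fold lower, had an edgeR adjusted p of 0.978. Among the 11671 genes that averaged 1 or more on the log2 CPM scale, 98.9% had a 95% CI within 2-fold of mock and 90.9% within 1.5-fold, and with the block 99.6% and 93.5%. B2M was the only one of them with a fold change past 2-fold. Over all tested genes 81 had a log2 fold change over 1 and 24 under -1. Apart from B2M these lay under that level, where counts are few.

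**Figure D2:**
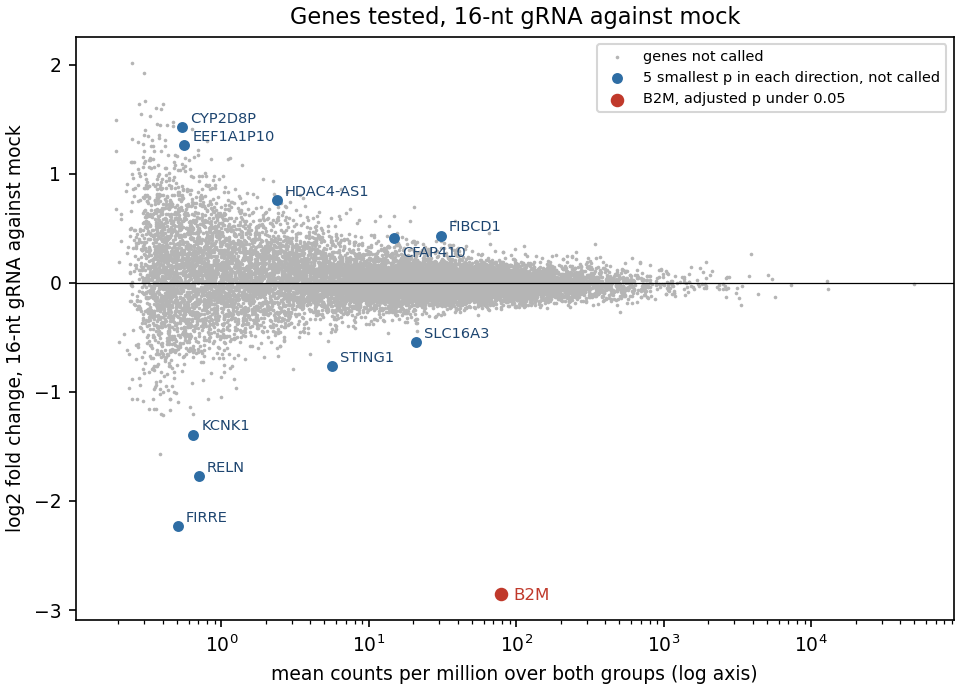
Log2 fold change of each tested gene (y axis) against its mean CPM over both groups (x axis, log scale). B2M lies at -2.85, apart from every other gene, and the 10 blue points are the genes with the smallest p in each direction, with adjusted p = 0.978 by edgeR.

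The 5 genes lower with the smallest p are given with their counts, as values of genes that were not called. Groups did not overlap in any of them, as in 730 tested genes that were lower (4.8%) and 671 that were higher (4.41%). RELN, which encodes the secreted guidance protein reelin, had 35, 32 and 24 counts in mock and 5, 11 and 10 with the 16-nt gRNA. Its log2 fold change was -1.77 (SE 0.37), and the full-length gRNA, compared with the same mock libraries, gave -1.22 (SE 0.35). FIRRE, a long noncoding RNA of the X chromosome, had 23, 29 and 18 against 8, 2 and 4 counts, a fold change of -2.23 (SE 0.49). It stood at -2.35 (SE 0.49) with the full-length gRNA. These genes rest on at most 35 reads per library, and 16-nt replicate 1 was the lowest library for RELN and replicate 2 for FIRRE.

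SLC16A3 and STING1 rested on more reads. SLC16A3, the lactate exporter MCT4, had 663, 821 and 607 counts in mock and 441, 543 and 411 with the 16-nt gRNA. Its mean level was 24.8 ± 2.36 CPM (SD, n = 3) in mock, with 18.1, 17 and 15.9 CPM in the 16-nt libraries. The log2 fold change was -0.54 (SE 0.12). With the block it was the gene with the lowest p after B2M (edgeR adjusted p = 0.320), and with the full-length gRNA it stood at -0.38. STING1, the endoplasmic reticulum adaptor through which cytosolic DNA induces interferon, had 230, 192 and 164 counts in mock and 111, 122 and 105 with the 16-nt gRNA. Mock replicate 1 was the highest STING1 library and the 16-nt libraries lay close together. Its log2 fold change was -0.77 (SE 0.18, edgeR adjusted p = 0.978, with the block 0.320), and -0.54 with the full-length gRNA. KCNK1, a potassium leak channel, had 17, 29 and 33 against 9, 12 and 8 counts, a fold change of -1.39 (SE 0.34).

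Genes higher with the smallest p had smaller changes or few reads. CFAP410, a ciliary protein, had 280, 452 and 344 counts in mock and 393, 542 and 445 in 16-nt libraries. On the CPM scale the 16-nt libraries all lay above mock, at 16.8 ± 0.558 against 12.6 ± 1.47 CPM (SD, n = 3 each), and the difference was 0.41 on the log2 scale (SE 0.11). FIBCD1, a chitin-binding membrane receptor, was at 26.1 ± 5.34 and 35.3 ± 2.23 CPM, a fold change of 0.43 (SE 0.13). HDAC4-AS1, antisense to the histone deacetylase gene HDAC4, had 33, 63 and 54 against 75, 84 and 84 counts, a fold change of 0.76 (SE 0.21). The pseudogenes EEF1A1P10 (11, 6 and 10 against 22, 23 and 19 counts) and CYP2D8P (5, 12 and 8 against 11, 27 and 28) stood at 1.26 and 1.43. Their values are uncertain because reads can be shared with the parent genes, and that of HDAC4-AS1 because the strand setting of the counting is not given.

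**Figure D3:**
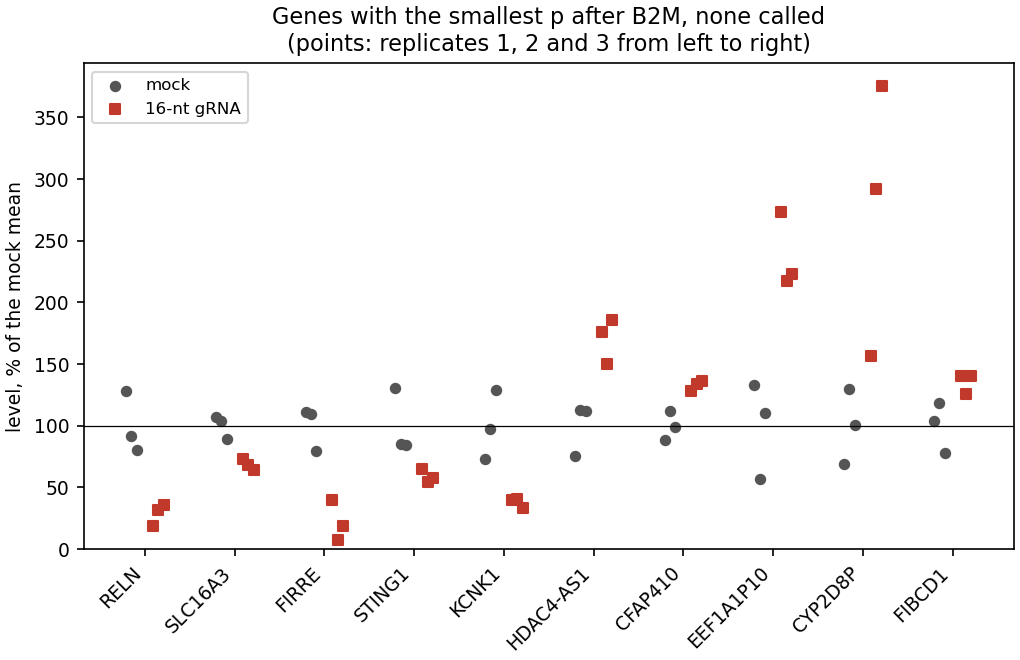
Level of the 10 genes with the smallest p after B2M, 5 lower and 5 higher, in each mock and 16-nt library as a percentage of the mock mean (y axis from 0). In each gene the 16-nt libraries lie on one side of the mock libraries, while the adjusted p was 0.978 for all 10.

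Without a filter on low counts, edgeR called 13 of 33525 genes (0.0388%), all of which the filtered fit had also tested. They included RELN, SLC16A3, FIRRE and STING1 as lower, and 8 genes as higher. MAPK8IP3, a scaffold of JNK signalling and axonal transport, was the first of these by p and was chosen after its values were seen. Its counts were 282, 371 and 637 in mock and 311, 877 and 888 with the 16-nt gRNA, so the groups overlapped. DDX39B, an RNA helicase of splicing and export, also chosen after its values were seen, had 595, 749 and 1250 against 598, 1521 and 1677. In both genes replicate 1 was the lowest library and replicate 3 the highest in the 16-nt group, and mock replicate 3 the highest in mock. The full-length libraries had the same order, with 364, 632 and 891 counts for MAPK8IP3 and 646, 1153 and 1572 for DDX39B. Their log2 fold changes with the full-length gRNA, against the same mock libraries, were 0.64 and 0.46. MAPK8IP3 stood at 0.70 (SE 0.37) without the block and 0.68 (SE 0.15) with it, DDX39B at 0.57 (SE 0.36) and 0.53 (SE 0.14). Without 16-nt replicate 3 and without the block they stood at 0.40 and 0.23, and without mock replicate 3 at 1.12 and 0.95. Neither was called in the filtered fit, where the edgeR adjusted p of MAPK8IP3 was 0.978 and, with the block, 0.814.

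No neighbour of B2M was called. B2M lies on the plus strand at positions 44711487 to 44721256 of chromosome 15. Within 1 Mb the table holds 82 other genes, of which 56 had a count and 22 could be tested. Of these 11 were higher and 11 lower, with a median log2 fold change of -0.013 beside 0.0019 over all genes. Of the 22, 2 had an unadjusted p under 0.05 (9.09%, against 2.48% of all genes), or 3 with the block (13.6%, against 6.05%). Within 5 Mb, 50 of 108 were higher and 3 had such a p (2.78%), and over the rest of chromosome 15 it was 15 of 506 (2.96%).

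The nearest neighbour is PATL2, an RNA-binding protein known from oocytes, which is transcribed from the opposite strand. Its span ends 171 bases before the start of B2M, inside the promoter printed above. It had 3, 0 and 7 counts in mock, 10, 10 and 18 with the 16-nt gRNA and 8, 12 and 25 with the full-length gRNA. Each 16-nt library thus held more PATL2 reads than any mock library, 18 being the most. The log2 fold change was 1.93 (SE 0.75, 95% CI 0.33 to 3.53, edgeR adjusted p = 0.978), and 1.99 with the block (adjusted p = 0.814). Leaving out mock replicate 2 gave 1.28 for PATL2, and leaving out mock replicate 3 gave 3.03. The full-length value of 2.2 (SE 0.73) shares the mock libraries. Since the strand setting is not given, reads from the opposite strand near the shared promoter may be among these counts.

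The other tested genes nearest to B2M lay close to mock. The spastic paraplegia gene SPG11, which ends 47.8 kb upstream, stood at -0.08 (SE 0.09), and the translation factor gene EIF3J, 148 kb upstream, at -0.10 (SE 0.11). Downstream, the ubiquitin ligase gene TRIM69, 10.1 kb away, stood at 0.22 (SE 0.12), from 10.8 ± 1.31 to 12.5 ± 1.42 CPM (SD, n = 3 each). The pseudogene SORD2P and the sorbitol dehydrogenase gene SORD stood at 0.10 and -0.09. The 95% CI of SPG11 (-0.27 to 0.12) and TRIM69 (-0.05 to 0.48) left no room for a fall like that of B2M. The second gene with an unadjusted p under 0.05, the pseudogene CATSPER2P1, chosen after its values were seen, lies 964 kb upstream and stood at 0.64 (SE 0.21).

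No larger region of the genome was called either. In windows of 5 Mb, edgeR called 0 of 596 (0%), with the smallest adjusted p at 0.836. At an unadjusted p under 0.05 it gave 2 (0.336%), and with the block 14 (2.35%), where the smallest adjusted p was 0.722. The 472 windows with at least 10 tested genes had log2 fold changes between -0.15 and 0.13. The median over all windows was -0.04, with 455 lower, so each window is read against that value.

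The window with the smallest p, at positions 65000001 to 70000000 of chromosome 13, holds 2 tested genes. It stood at -0.40 (SE 0.12), and PCDH9, a neuronal protocadherin, made up 89.3% of its CPM. PCDH9 had 172, 204 and 159 counts in mock and 126, 146 and 108 with the 16-nt gRNA, a log2 fold change of -0.45. The next was at positions 20000001 to 25000000 of chromosome 5, at -0.18 (SE 0.07). Its main genes, the meiotic recombination factor PRDM9 and the cadherin CDH18, stood at -0.21 and -0.16. The next, at positions 35000001 to 40000000 of chromosome 15, stood at -0.11 (SE 0.05), with the translation-control kinase EIF2AK4 at -0.09, the RAS-pathway inhibitor SPRED1 at -0.06 and the RAS activator RASGRP1 at -1.07 on 2 to 13 counts per library.

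Windows of 1 Mb were the only regional scale at which one was called. It was 1 of 2342 (0.0427%), positions 44000001 to 45000000 of chromosome 15, and it holds B2M. It stood at -0.44 (SE 0.06, edgeR adjusted p = 0.0167, with the block 0.0311), and B2M made up 27.6% of its CPM in mock. With B2M taken out it stood at -0.05 (95% CI -0.20 to 0.09, edgeR adjusted p = 0.923, with the block 0.852). The 5-Mb window around B2M stood at -0.05 with B2M and -0.01 without it (95% CI -0.10 to 0.08).

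**Figure D4:**
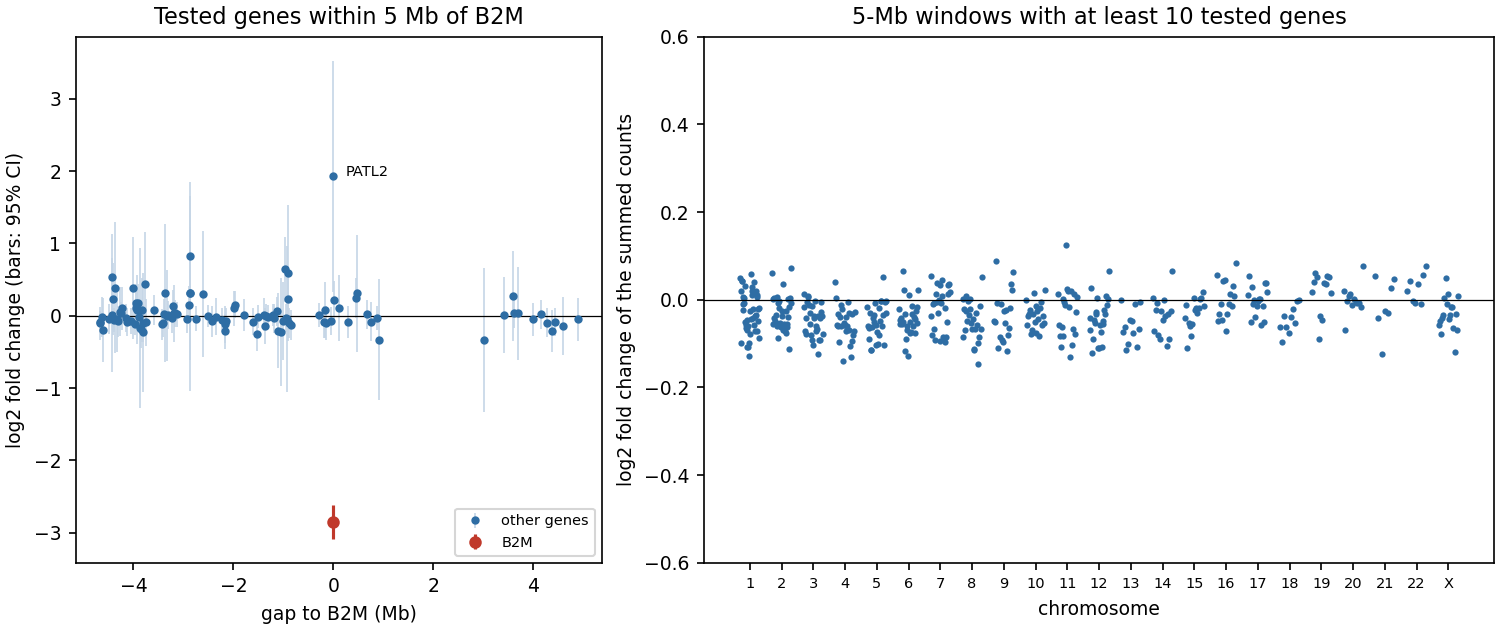
Left, log2 fold change with its 95% CI of each tested gene within 5 Mb of B2M, by its gap to B2M in Mb. Right, log2 fold change of the counts summed in each 5-Mb window with at least 10 tested genes, by chromosome. B2M at -2.85 stands apart on the left, and the windows on the right lie between -0.15 and 0.13.

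Over whole chromosomes edgeR called 0 of 25 and gave 0 at an unadjusted p under 0.05, with or without the block. The smallest adjusted p was 0.882, and 0.761 with the block. Small shifts differed between sets of chromosomes. On the gene-rich chromosomes 16, 17, 19 and 22, 2087 of 3233 tested genes were higher (64.6%), and on the gene-poor chromosomes 4, 13 and 18 it was 343 of 948 (36.2%), against 50.6% of all genes. These chromosomes were picked with their values in view, so their contrast is no test of chromosome class. Chromosome 21, with 176 tested genes and so fewer than 4, 13 or 18, was in neither set and had 87 higher. The gap between the medians of both sets was 0.00066, 0.071 and -0.078 in mock libraries and 0.084, 0.046 and 0.14 in 16-nt libraries, on the log2 scale. The groups overlapped, since mock replicate 2 lay above 16-nt replicate 2. In the full-length libraries the gap was -0.0023, 0.078 and 0.18, with replicate 3 the highest there too.

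Genes were also grouped by the CpGs in their promoters, the sites of DNA methylation. Promoters in the reference matched 10325 of the 15213 tested genes by symbol. From the fifth of promoters with the fewest CpGs (0 to 16) to that with the most (37 to 69), the median log2 fold changes were -0.0048, -0.018, -0.012, -0.0078 and 0.011. The shares with an unadjusted p under 0.05 were 2.39%, 2.38%, 1.70%, 1.84% and 1.80%, and 0 genes were called in each. B2M, the only gene called, was thus not counted in these classes. Its promoter window holds 22 CpGs, which lies in the class of 17 to 23.

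None of the genes from which published ETRs take their domains was called. DNMT3A had 1493, 2191 and 2089 counts in mock and 1807, 2352 and 1774 with the 16-nt gRNA, with overlapping groups and a log2 fold change of 0.08 (SE 0.09). ZNF10 had 44, 49 and 53 against 39, 77 and 66, also overlapping, at 0.34 (SE 0.22). DNMT3L held 7, 8 and 4 against 6, 7 and 1 counts and was too low to test. Of 29 genes of DNA methylation and KRAB repression, 11 were higher and 18 lower, with a median of -0.038 and 0 at an unadjusted p under 0.05. ZBTB33, which encodes the methyl-CpG binding protein Kaiso, had the smallest p, at -0.21. With the block it was the 1 member of the list at an unadjusted p under 0.05. In that fit 2.23% of all tested genes were lower at such a p.

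The germline and imprinted lists held 0 calls. Of 34 germline genes in the table, which DNA methylation silences in most tissues, 13 had enough reads to test, so members silent in these cells were not tested. Of these 13, 7 were higher (median 0.016), with the cancer-testis antigen gene CTAG2 at 0.16. Of 17 imprinted genes 8 were higher (median -0.029), and MEST, transcribed from the paternal copy, was the only one with an unadjusted p under 0.05. MEST stood at 75.2, 59.5 and 71.2 CPM in mock and 54.8, 59.6 and 62.1 CPM with the 16-nt gRNA, so its groups overlapped, at -0.22 (SE 0.10).

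The partners of beta-2-microglobulin held 0 calls as well. Of 14 heavy chain genes, 6 had enough reads to test, and 5 of these were higher, with a median of 0.081. HLA-C, a classical class I chain, had 270, 307 and 263 counts in mock and 277, 345 and 278 with the 16-nt gRNA, at 0.14 (SE 0.11, 95% CI -0.09 to 0.36). HLA-E, the ligand of the NK receptor NKG2A, had 1610, 2313 and 1840 against 1750, 2122 and 1741 counts, at 0.013 (95% CI -0.16 to 0.19). HLA-B stood at 0.25 (SE 0.23), the iron regulator HFE at 0.038, the neonatal Fc receptor chain FCGRT at 0.12 and MR1, which presents vitamin B metabolites, at -0.06. Leaving out mock replicate 3 gave 0.065 for HLA-B, and leaving out mock replicate 2 gave 0.46. FCGRT was at 0.031 once mock replicate 1 was left out. HLA values are uncertain, since class I genes share sequence and the annotated spans of HLA-B and HLA-C overlap. Of 17 genes of peptide loading and its regulation 9 were higher (median 0.021). RFXAP, a subunit of the RFX factor that binds class I and class II promoters, had the smallest p, at -0.29 (SE 0.14).

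Over the other pathways, 0 members of any list were called, and list medians are given beside 0.0019 over all genes, of which 1.45% were higher and 1.03% lower at an unadjusted p under 0.05. With 1 library left out at a time and the filter run again, the medians of 15 of the 26 lists changed sign in at least 1 case. Each list below is given by its members higher and lower and by the median of their edgeR log2 fold changes. Medians by library are instead differences in log2 CPM between 1 16-nt library and the mock mean. Type I interferon genes and RNA sensors, which respond to transfected RNA, had 10 higher and 6 lower (median 0.021), with 0 at an unadjusted p under 0.05 in either fit. That median was -0.089 to -0.014 with any 1 library left out and -0.044 without both gRNA replicate 3 libraries, so its sign is not settled. By library the interferon median was -0.028, -0.056 and 0.012 in 16-nt replicates 1 to 3. IFI27, an interferon-induced gene, had the smallest p, on 13 to 31 counts per library, at -0.37 (SE 0.30). NF-kB genes had 6 higher and 10 lower (median -0.045), also with 0 in either fit, with the surface marker CD83 at -0.38. CD83 rested on 16-nt replicate 1, which held 9 counts where the other libraries held 24 to 34, and stood at -0.078 without it.

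Among stress responses, p53 targets had 15 of 23 higher (median 0.044), with PLK3, a stress-activated kinase, at 0.31 (SE 0.14). Integrated stress genes had 17 of 31 higher (median 0.0097), with the lipoprotein receptor VLDLR at -0.34 and non-overlapping groups. Heat shock genes had 8 of 23 higher (median -0.033), with HSPA4L, a nucleotide exchange factor of HSP70, at -0.15. In the hypoxia and glycolysis list 9 were higher and 27 lower (median -0.061), and 2 had an unadjusted p under 0.05, both lower (SLC16A3, described above, and NDRG1), where 1.03% of all genes were lower at such a p. Its median was 0.029, -0.11 and -0.12 in 16-nt replicates 1 to 3, so replicate 1 did not share the direction.

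Most proliferation genes had fold changes slightly under 0, and none was called. Of 34 genes of G1/S and replication 24 were lower (median -0.034), and cyclin E2, CCNE2, had 252, 271 and 240 counts in mock and 168, 238 and 178 in 16-nt libraries. On the CPM scale its groups did not overlap, and it stood at -0.36 (SE 0.16). Of 27 mitotic genes 22 were lower (median -0.068), with the checkpoint kinase TTK at -0.16 and 0 at an unadjusted p under 0.05 in either fit. The mitotic median was -0.029, -0.033 and -0.11 in replicates 1 to 3, the furthest from 0 in the library that stood apart. Of 27 histone genes, whose RNAs lack poly(A) tails, 21 were lower (median -0.079), but the median by library was 0.19, -0.24 and -0.07. Without mock replicate 2 the histone median was 0.030.

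Immediate early genes had 26 of 29 higher (median 0.10), with 1 at an unadjusted p under 0.05. This was FOSL1, an AP-1 subunit, with 168, 219 and 205 counts in mock and 186, 261 and 298 with the 16-nt gRNA, at 0.38 (SE 0.17). The list median was 0.045 and 0.063 in replicates 1 and 2 and 0.26 in replicate 3, and without that library it was 0.048 and FOSL1 stood at 0.17. Abundant noncoding RNAs had 7 of 9 higher (median 0.26), again uneven, with 0.40, -0.039 and 0.40 by library. RNU4ATAC, an RNA of the minor spliceosome, had the smallest p, with 9, 14 and 12 against 16, 23 and 23 counts. RN7SL1 alone took 5.39%, 3.36% and 5.95% of counts in 16-nt libraries and 5.56%, 5.22% and 4.0% in mock, and its part in the list was not tested.

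Mitochondrially encoded genes, which are cut from shared long transcripts, had 11 of 13 higher (median 0.18, with the block 0.26). None had an unadjusted p under 0.05 without the block, and 5 did with it, all higher (38.5%, against the 3.82% of all tested genes that were higher at such a p in that fit). MT-ND6, the one messenger of the light strand, stood at 20.4, 48.4 and 44.6 CPM in mock and 34.9, 51.7 and 48.7 CPM with the 16-nt gRNA. The 16-nt library was above the mock library of the same number in 3 of 3 cases. Mock replicate 1 was the lowest of these libraries. Without it, in the fit without the block, MT-ND6 stood at -0.044 and the list median at -0.044. Leaving out a library was not run with the block. Mitochondrial reads made up 0.163% of mock replicate 1, and 0.212% to 0.274% of the other 5 libraries. Nuclear genes of the respiratory chain had 16 higher and 16 lower (median 0.00044), with the complex I subunit gene NDUFB10 at 0.18.

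Of the lineage genes, 13 of 37 erythroid genes were higher (median -0.032). The transferrin receptor TFRC, through which erythroid cells import iron, stood at 636, 502 and 525 CPM in mock and 494, 455 and 433 CPM with the 16-nt gRNA. The groups did not overlap, though mock replicate 2 lay only just above 16-nt replicate 1, and TFRC stood at -0.27 (SE 0.10), or -0.16 without mock replicate 1. Of 6 megakaryocyte genes 4 were higher (median 0.050), with NBEAL2, needed for platelet alpha-granules, at 0.25. NK ligands, which matter because NK cells respond to low class I, had 5 of 13 higher (median -0.060), with CLEC2B, the ligand of NKp80, on 9 to 20 counts at -0.82.

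The remaining lists had medians between -0.031 and 0.023. Cholesterol synthesis genes had 19 of 28 higher (median 0.018), with FASN, the fatty acid synthase, going from 1791 ± 114 to 2048 ± 42.1 CPM (SD, n = 3 each), at 0.19. Ribosomal protein genes had 47 of 75 higher (median 0.023), uncertain because such genes have pseudogene and near-identical copies. Lysosomal genes had 12 of 26 higher (median -0.031), with LAMP2, a lysosomal membrane protein, at -0.17, and cell death regulators 11 of 25 (median -0.018), with the kinase gene RIPK1 at -0.15.

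**Figure D5:**
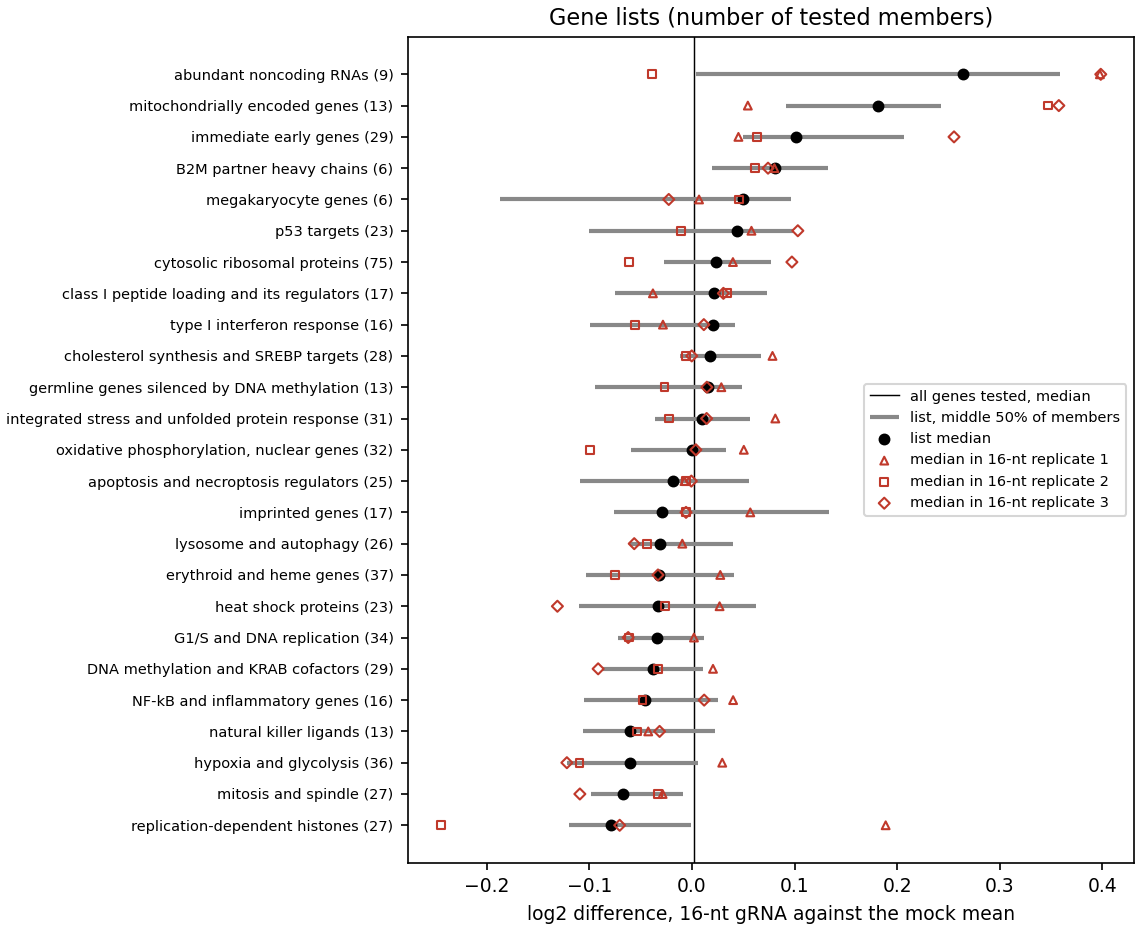
Median edgeR log2 fold change of each gene list with at least 5 tested members (black points, x axis) and the middle 50% of its members (bars). Red symbols are the list median in each 16-nt library against the mock mean, in log2 CPM. The vertical line is the median of all tested genes, 0.0019, and the list medians run from -0.079 to 0.26.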

How the data were processed

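Counts of reads per gene were analysed for 9 RNA-seq libraries of K-562 cells, 3 per group, with groups and replicate numbers from the sample titles. The authors deposited 1 table of raw counts, without normalization, and gene coordinates are those of that table. Total RNA was isolated with RNeasy columns and made into libraries with the NEBNext Ultra kit, per the labels' protocols. The submitters' processing notes name build GRCh38 and, among other tools, Subread 2.0.1, featureCounts, STAR 2.7.6a and Trim Galore 0.6.6. Annotation release, strand setting and treatment of reads with several matches were not given in the sources used here.

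From these counts, edgeR 4.0.16 in R 4.3.3 was run with TMM scaling, the filterByExpr filter (minimum count 10) and a two-sided quasi-likelihood test on all 9 libraries with a term per group. A gene was called at an adjusted p (Benjamini-Hochberg) under 0.05 over all 15213 tested genes. A standard error is the fold change divided by the square root of its F statistic. Each fit was repeated with the replicate number as a block. Log2 CPM used a prior count of 2. Counts summed over windows and chromosomes, with each gene placed by its midpoint, were fitted with the library sizes and TMM factors of the gene fit. B2M was also compared by an exact permutation test. DESeq2 1.42.0 and other filters, scalings and sets of libraries were alternatives. The scripts were tested on simulated data.

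The named genes are B2M, its 3 nearest tested genes on each side, the 5 genes with the smallest p in each direction (unnamed loci skipped), the member of each of 26 lists with the smallest p, all tested heavy chain and ETR source genes, and leading genes of the 3 windows with the smallest p. Genes, lists and comparisons were chosen with earlier results of these data known. 1 list symbol was not found in the table. The result of 1 gene that this rule took is not reported here. Promoter sequence is from RefSeq, GRCh38.p14.

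Total counts ranged from 23763529 to 33260228 per library. Library pairs within the mock and 16-nt groups had a chi-square per degree of freedom of 12.0 to 28.0, so none was a repeat deposit within sampling noise.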

Additional observations from a re-analysis of the deposited data

How the results depend on the processing

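The fold change of B2M against mock kept its direction and stayed called under every alternative run, from -2.98 (without 16-nt gRNA replicate 2) to -2.75 (without replicate 3). Against the full-length gRNA it ranged from 0.86 to 1.09. B2M stayed the only gene called except without a filter on low counts, which gave 13 genes. No window was called except in windows of 1 Mb, which gave 1, and 0 chromosomes were called throughout. The cause of the larger number of calls without a filter was not tested.

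The main fit had no block, because the labels do not say what a replicate number marks. Deviations of same-numbered mock and 16-nt libraries correlated at 0.061, -0.19 and 0.20, and those of libraries with different numbers at -0.32 to 0.29. On the first principal component, however, libraries rose with replicate number in each group. Replicates 1 to 3 stood at -19.1, -17.0 and 2.37 in mock and at -12.0, 6.84 and 26.9 with the 16-nt gRNA. The full-length gRNA gave -18.4, -0.327 and 30.7. With the replicate block, B2M stood at -2.86 and 1 gene was called, as without it, and genes at an unadjusted p under 0.05 went from 377 to 921.

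Of 856 values of single named genes under the alternatives, 837 kept their direction and side of the threshold, 9 passed it, all without a filter on low counts, and 10 changed sign. With 1 library left out, EIF3J ranged from -0.16 to 0.022, SORD2P from -0.10 to 0.25, SORD from -0.18 to 0.0060 and MT-ND6 from -0.044 to 0.47. HLA-E ranged from -0.025 to 0.061, HFE from -0.053 to 0.11, DNMT3A from -0.0033 to 0.17 and SPRED1 from -0.15 to 0.0041, and without both gRNA replicate 3 libraries SPRED1 stood at 0.0040. Of 378 list medians, 55 moved by more than the spread between the 16-nt libraries. Few reads limit genes such as PATL2, RELN and FIRRE, whose 95% CIs spanned more than 1 log2 unit.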

Other observations

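A few genes had reads in one group and none in the other. With at least 10 reads summed over a group and 0 in the other, 3 genes were seen with the 16-nt gRNA and 3 in mock, chosen by that rule after the data were seen. In mock these were APOD, which encodes the lipid carrier apolipoprotein D (3, 4 and 4 reads), and the pseudogenes CD83P1 (6, 2 and 2) and HNRNPA3P10 (3, 3 and 4). With the 16-nt gRNA they were the unnamed loci AC098934.2 (4, 4 and 4), AP006259.1 (2, 2 and 6) and AC130371.2 (2, 4 and 4). The full-length libraries held reads of APOD (2, 3 and 1), CD83P1 (3, 1 and 1) and all 3 of the unnamed loci, and 0 of HNRNPA3P10. All of these lie at a few reads per library, and no test was run on them.

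AHSA2P, a pseudogene of a HSP90 cochaperone activator, chosen after its values were seen, had 176, 272 and 350 counts in mock and 272, 468 and 452 with the 16-nt gRNA. The 16-nt library was higher than the mock library of the same number in 3 of 3 cases, while the groups overlapped. Its log2 fold change was 0.61 (SE 0.25, edgeR adjusted p = 0.978) without the block and 0.64 (SE 0.12, adjusted p = 0.320) with it. LENG8 and CDK5RAP3, also chosen after their values were seen, had the same form, with 1246, 1588 and 1808 against 1357, 2402 and 2479 counts for LENG8. CDK5RAP3 had 99, 98 and 190 against 107, 271 and 317 counts. With the block their fold changes were 0.43 and 0.85, and the standard error of CDK5RAP3 went from 0.41 to 0.19. Without the block they stood at 0.46 and 0.86, and without 16-nt replicate 3 at 0.25 and 0.49. Without mock replicate 3 CDK5RAP3 stood at 1.26.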
